A study of Mus musculus with 14 samples.

Results

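Chromatin accessibility was described here at the loci of 7 transcription factors of quiescent and central T cells, Tcf7, Lef1, Bach2, Satb1, Foxo1, Foxp1 and Id3, in splenic Tregs. A region belonged to a locus if its midpoint had that gene's transcription start as the nearest protein-coding start, or lay within the gene body. The rule used positions only and no measured value. It took 275 of the 67254 regions in the table, and 247 of these passed the filter on low counts that left 61366 regions for testing. Tcf7 had 14 regions, Lef1 41, Bach2 58, Satb1 48, Foxo1 41, Foxp1 66 and Id3 7. In GRCm38 the gene bodies are chr11:52246527-52283383 (Tcf7, - strand), chr3:131110297-131224357 (Lef1, + strand), chr4:32238413-32586109 (Bach2, + strand), chr17:51736187-51833290 (Satb1, - strand), chr3:52268337-52350109 (Foxo1, + strand), chr6:98925342-99522746 (Foxp1, - strand) and chr4:136143822-136145392 (Id3, + strand). Of the 275, 156 lay inside the body of their own gene with its start as the nearest, 116 outside the body, and 3 inside the body but nearer the start of a neighbour (Hadh beside Lef1, Skp1 beside Tcf7). A region outside a body was assigned by distance alone, which does not say that it regulates that gene.

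The libraries came from mixed BM chimeras. Irradiated Rag1-/- hosts, which lack T and B cells of their own but still make innate lymphocytes, were reconstituted with CD45.2+ donor BM together with CD45.1+ wild-type BM, and the CD45.2+ Tregs were sorted from the spleen. The donors were control Foxp3Cre Atg14+/fl or Foxp3Cre Atg14fl/fl mice, so that both genotypes carried Foxp3Cre, which is expressed with YFP in Foxp3+ cells, and the controls also carried a floxed allele. Control cTregs (n = 3) and Atg14-deficient cTregs (n = 4) were CD4+ Foxp3-YFP+ cells with low CD44 and the surface phenotype of central cells. The eTregs, sorted as CD4+ Foxp3-YFP+ cells with high CD44 and the surface phenotype of effector cells, came from control (n = 3) and Atg14-deficient (n = 4) chimeras. The age of the mice was not given in the labels. The Cre acts in Foxp3+ cells, but the study also used mice that carried an Atg14 allele already deleted in some experiments, and the labels do not say whether these donors did.

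ATAC-seq uses a transposase that inserts adapters where chromatin is open, and a region with a higher count was more accessible. Central Tregs resemble naive T cells in that they recirculate through lymphoid organs and express CCR7, whereas effector Tregs have been activated and have exchanged this program for one of tissue entry and suppression. Tcf7 and Lef1 encode TCF-1 and LEF-1, HMG-box factors that share a DNA motif and act with beta-catenin or with Groucho corepressors. Bach2 is a repressor that restrains effector genes at sites shared with AP-1, Satb1 organises chromatin loops in developing T cells, and Foxo1 is a forkhead factor that AKT signalling removes from the nucleus and that drives Klf2, Ccr7 and Il7r. Foxp1 is a forkhead factor that maintains quiescence in naive T cells, and Id3 binds E proteins and keeps them from DNA. Atg14 is a subunit of the Vps34 lipid kinase complex that starts autophagy.

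The central 200 bases of 8 regions are printed. For Lef1, Bach2, Satb1 and Foxp1 this is the region of smallest p in the control state comparison among regions that overlap no exon. Others are the region of smallest p for genotype in eTregs and the far upstream Satb1 region. A further pair was picked because it was more accessible in control cTregs and holds the letters of the TCF/LEF motif. These letters were in 8.7% of member regions more accessible in control cTregs and in 8.46% of the other tested members. Coordinates and bases are those of GRCm38, read from the RefSeq genome file. Capitals mark a match to any of the motifs CTTTGAT (TCF and LEF factors), GTAAACA (forkhead), TGANTCA (AP-1), ACAGGAA (ETS), TGTGGTT (RUNX), CAGCTG (E proteins) or CCCCACCC (KLF), each searched on both strands. The motifs overlapped in none of these 8 sequences.
Lef1 intron, + strand, chr3:131171329-131171528: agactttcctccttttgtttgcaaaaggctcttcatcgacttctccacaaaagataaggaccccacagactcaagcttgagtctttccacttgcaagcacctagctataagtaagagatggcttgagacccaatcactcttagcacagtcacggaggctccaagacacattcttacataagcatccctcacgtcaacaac
Bach2 intron, + strand, chr4:32343859-32344058: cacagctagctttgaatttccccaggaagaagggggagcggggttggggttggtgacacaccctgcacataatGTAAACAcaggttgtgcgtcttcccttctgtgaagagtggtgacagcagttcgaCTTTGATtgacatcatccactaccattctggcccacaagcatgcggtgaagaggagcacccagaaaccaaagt
Bach2 intron with TCF/LEF letters, + strand, chr4:32393325-32393524: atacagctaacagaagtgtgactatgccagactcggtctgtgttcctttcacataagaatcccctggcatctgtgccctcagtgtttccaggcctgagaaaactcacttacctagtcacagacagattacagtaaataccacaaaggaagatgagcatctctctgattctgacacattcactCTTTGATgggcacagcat
Satb1 downstream, + strand, chr17:51735511-51735710: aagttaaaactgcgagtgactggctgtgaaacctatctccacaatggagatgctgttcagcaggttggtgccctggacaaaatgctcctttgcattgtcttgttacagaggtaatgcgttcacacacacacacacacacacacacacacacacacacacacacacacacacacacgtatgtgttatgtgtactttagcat
Satb1 upstream with TCF/LEF letters, + strand, chr17:51880305-51880504: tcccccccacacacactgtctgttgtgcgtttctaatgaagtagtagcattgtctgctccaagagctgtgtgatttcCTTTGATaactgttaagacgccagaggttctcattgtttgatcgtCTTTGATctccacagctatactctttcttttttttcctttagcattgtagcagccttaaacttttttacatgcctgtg
Satb1 far upstream, + strand, chr17:52178096-52178295: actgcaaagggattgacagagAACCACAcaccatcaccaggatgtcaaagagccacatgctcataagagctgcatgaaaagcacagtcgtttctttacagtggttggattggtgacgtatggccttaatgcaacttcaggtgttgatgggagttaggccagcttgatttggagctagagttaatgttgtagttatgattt
Foxp1 intron, + strand, chr6:99309473-99309672: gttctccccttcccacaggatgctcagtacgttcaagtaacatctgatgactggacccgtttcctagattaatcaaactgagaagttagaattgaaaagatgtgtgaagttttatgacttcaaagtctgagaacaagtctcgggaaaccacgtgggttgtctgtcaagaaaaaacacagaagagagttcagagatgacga
Foxp1 intron, genotype, + strand, chr6:99388932-99389131: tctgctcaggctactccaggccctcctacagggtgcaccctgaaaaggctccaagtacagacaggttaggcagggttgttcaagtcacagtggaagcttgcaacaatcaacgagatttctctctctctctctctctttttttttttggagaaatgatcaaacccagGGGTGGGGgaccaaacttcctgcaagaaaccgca
In these windows the Bach2 intron region held forkhead and TCF/LEF letters, the second Bach2 region held TCF/LEF letters once, and the Satb1 upstream region held them at 2 positions. The capitals in the far upstream Satb1 region read RUNX and those in the Foxp1 genotype region read KLF, both on the minus strand. The Satb1 downstream region contained a run of CA repeats, and it, the Lef1 region and the first Foxp1 region held no match in this window.

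Total counts per library ranged from 2242983 to 5548189, and a tested region had a median of 23 counts as its mean over libraries. Mean correlations of a library with its own group were 0.878 to 0.921, and 51.9% to 58.5% of counts lay in promoter regions. Of the markers of Tregs, the promoters of Il2ra, Ikzf2, Ctla4 and Cd3e had a region in the table. Foxp3 and Cd4 had no promoter region, and each was represented by an intragenic region with counts in every library. Their summed promoter level was 125 to 132 CPM (counts scaled to 1000000 of the library total) in control cTregs, 137.5 to 167 CPM in Atg14-deficient cTregs, 93.7 to 97.4 CPM in control eTregs and 117.5 to 126 CPM in Atg14-deficient eTregs. It was thus higher in Atg14-deficient than in control libraries of each state, and lower in eTreg than in cTreg libraries of each genotype. Its part in the genotype and state comparisons was not tested. The B cell markers Ms4a1, Cd79a and Pax5, the myeloid markers Csf1r, Itgam, Lyz2 and Fcgr1, and Cd8a and Ncr1 had no promoter region. The Cd8b1 promoter moved with state, from 15.6 to 16.9 CPM in control cTregs and 10.3 to 21.4 CPM in Atg14-deficient cTregs to 2.62 to 6.83 and 1.54 to 6.35 CPM in the corresponding eTregs, and its part in the differences between states was not tested. The natural killer cell marker Klrb1c was between 0 and 5.99 CPM. The regions at Atg14 check nothing about the deletion because the sources used here did not place the deleted exon, and its promoter region differed between genotypes by a log2 fold change of 0.03 in eTregs and -0.38 in cTregs.

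The first comparison asked which regions of these loci differed between eTregs and cTregs of the control chimeras. More regions of these loci fell than rose in eTregs, though not at every locus. Of the 247 tested regions, 46 fell in eTregs (18.6%) past the threshold (an adjusted p below 0.05 and an absolute log2 change above 0.5), against 3.29% of all tested regions. Past the same threshold 2 regions rose, against 2.01% of all regions. In bulk libraries, fewer cells with an open region and a region that is less open in each cell cannot be told apart. The median log2 fold change of the 247 was -0.63, against -0.01 over all tested regions, and 193 of the 247 values were below 0. By gene, 17 of 43 Satb1 regions, 11 of 55 Foxp1 regions, 10 of 55 Bach2 regions, 6 of 37 Lef1 regions and 2 of 14 Tcf7 regions fell. No Foxo1 region of 36 and no Id3 region of 7 passed in edgeR at this threshold. At an unadjusted p below 0.05 and the same change, 6 Foxo1 regions were lower in eTregs (16.7%, against 10.4% of all tested regions) and 0 Id3 regions passed. Leaving out a single library lowered the count of 46, to 17 without control cTreg replicate 1, 18 without control eTreg replicate 1, 24 without control cTreg replicate 3 and 25 without control eTreg replicate 2. The share over all tested regions in these fits is not given, so a change at the members cannot be told from one over all regions.

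The regions that fell were found in every kind of location. They were 27 of 119 tested intronic regions (22.7%), 11 of 78 upstream (14.1%), 4 of 19 promoter regions within 1 kb of an annotated start (21.1%), 2 of 8 in untranslated exons (25.0%) and 2 of 23 downstream (8.7%). Over all tested regions 1.18% of promoter regions and 3.92% of the others fell. Their distances from the first annotated start ran from 344.9 kb before it to 491.3 kb after it. All 11 Foxp1 regions lay inside the gene body, as did most tested regions of that locus, and so did all 10 Bach2 regions. At Satb1, 9 of 29 tested upstream regions fell.

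**Figure D1:**
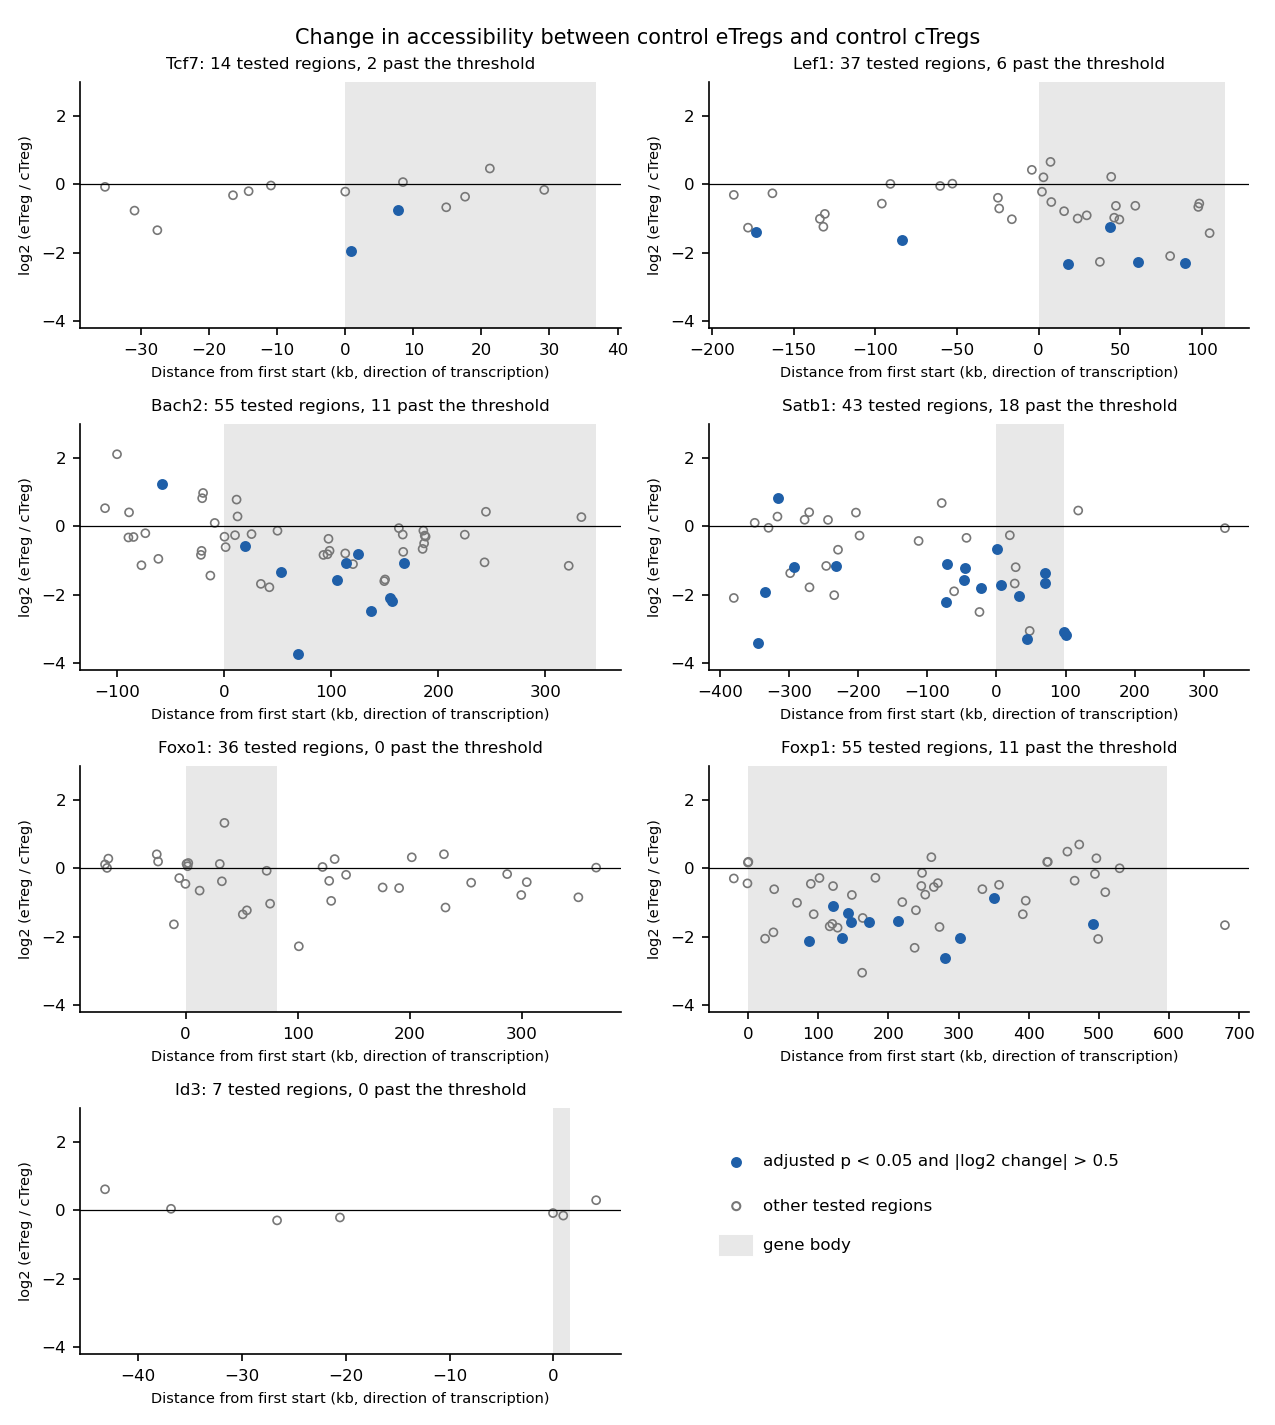
Log2 fold change of control eTregs against control cTregs (y axis) for each tested region of the 7 loci, by its distance from the first annotated start of the gene in kb (x axis), with regions past the adjusted threshold marked. Of 247 regions, 46 sit below 0 and 2 above it past the threshold, and the low points extend through the Foxp1 body and far upstream of Satb1.

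At the HMG-box genes, 14.3% of tested Tcf7 regions and 16.2% of tested Lef1 regions fell. At the internal Tcf7 promoter region chr11:52282455-52282740, 0.8 kb after the first start, the control cTreg libraries had 5.87, 7.18 and 8.03 CPM and the control eTreg libraries 1.30, 1.05 and 2.70 CPM. Each cTreg library exceeded every eTreg library, and the log2 fold change was -1.96 ± 0.57 (SE; adjusted p = 0.0391). This call held in 1 of 6 fits that left out a library, that without control eTreg replicate 3. Over the 6 fits the log2 values ran from -2.54 to -1.72. The second Tcf7 region that fell, chr11:52275389-52275865 in an untranslated exon, changed by -0.77 ± 0.22 (adjusted p = 0.0402) and kept its call in 2 of 6 such fits, those without control cTreg replicate 2 or control eTreg replicate 3. It also missed the threshold when only the compared groups were fitted (adjusted p = 0.0527). The upstream region chr11:52313906-52314724 had 23.2, 28.2 and 29.9 CPM against 17.9, 11.02 and 18.4 CPM, without overlap, and its value of -0.77 ± 0.24 did not pass (adjusted p = 0.0596). It passed with the replicate number as a block (adjusted p = 0.0321) and with the number within genotype as a block (adjusted p = 0.00995).

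Lef1 carried its differences in introns and upstream. The intronic region chr3:131199581-131200619, 89.8 kb after the first start, had 15.2, 9.10 and 8.03 CPM in control cTregs and 3.90, 1.57 and 1.44 CPM in control eTregs. The groups did not overlap, and the log2 fold change was -2.30 ± 0.48 (adjusted p = 0.00444), a call lost without control cTreg replicate 1. The intronic region chr3:131171235-131171622, whose sequence is printed above, had 5.13, 5.26 and 6.69 CPM against 1.95, 0.525 and 1.08 CPM, a change of -2.26 ± 0.50 (adjusted p = 0.00735). Again every cTreg library was higher. By contrast, the most accessible Lef1 promoter region, chr3:131111935-131112780, had 45.5 to 53.3 CPM in control cTregs and 35.3 to 48.3 CPM in control eTregs, groups that overlapped, and its change of -0.22 ± 0.17 did not pass (adjusted p = 0.504).

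At Bach2, the repressor of effector genes, 10 regions fell by log2 values from -3.72 to -0.59 and 1 rose. The intronic region chr4:32343740-32344178 had 38.4, 27.3 and 28.5 CPM in control cTregs and 8.46, 14.2 and 9.37 CPM in control eTregs. The lowest cTreg library lay well above the highest eTreg library, with a change of -1.56 ± 0.26 (adjusted p = 0.00063). The Bach2 promoter region chr4:32238339-32238886 had 47.3 to 62.3 CPM against 39.9 to 48.1 CPM, with overlapping groups and a change of -0.31 ± 0.20 (adjusted p = 0.42). The region that rose, chr4:32179630-32180132, lies 58.5 kb upstream of the first start and was named after its values were seen. It had 10.0, 16.8 and 5.35 CPM in control cTregs and 24.1, 30.2 and 24.9 CPM in control eTregs, so that all eTreg libraries were higher, and its change was 1.24 ± 0.32 (adjusted p = 0.0202). No region of the 7 loci rose without control cTreg replicate 1 or without control cTreg replicate 3.

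Satb1, the chromatin organiser, had the highest share of regions that fell among the 7 loci, 39.5% of those tested. The region of smallest p among all 247 was chr17:51735235-51735986, 97.7 kb after the first start and just beyond the gene's end. It had 12.5, 9.57 and 23.2 CPM in control cTregs and 1.30, 2.36 and 1.44 CPM in control eTregs, a change of -3.09 ± 0.43 (adjusted p = 0.000136). The far upstream region chr17:52178015-52178376, 344.9 kb before the first start, had 8.31, 6.22 and 6.69 CPM against 0.651, 0.525 and 0.721 CPM, a change of -3.40 ± 0.53 (adjusted p = 0.000401). Neither region had overlapping groups, and both calls held in each of the 6 fits that left out a library.

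Both Satb1 promoter regions fell as well. The region at the first start, chr17:51832404-51833453, had 74.8, 68.9 and 82.9 CPM in control cTregs and 46.5, 43.0 and 52.3 CPM in control eTregs, a change of -0.67 ± 0.15 (adjusted p = 0.0103) that was lost without control eTreg replicate 2. The internal promoter region chr17:51826424-51826854 had 16.6, 13.4 and 26.8 CPM against 2.93, 6.30 and 7.21 CPM, a change of -1.71 ± 0.33 (adjusted p = 0.00258). In both, the lowest cTreg library was above the highest eTreg library. The single Satb1 region that rose, chr17:52149058-52149461, was named after its values were seen and changed by 0.83 ± 0.24 (adjusted p = 0.0357), a call lost without control cTreg replicate 1 or control cTreg replicate 3.

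The 2 forkhead genes differed in their counts of calls. At Foxp1 the intronic region chr6:99309209-99309937, 213.2 kb after the first start, had 38.6, 37.1 and 25.0 CPM in control cTregs and 12.4, 8.40 and 13.7 CPM in control eTregs. The groups stood apart, with a change of -1.55 ± 0.26 (adjusted p = 0.000705). A second intronic region, chr6:99388747-99389316, changed by -2.03 ± 0.41 (adjusted p = 0.00362), and the region chr6:99241623-99241975, by -2.62 ± 0.49 (adjusted p = 0.00202). An internal promoter of Foxp1, chr6:99435088-99435562, also fell, by -2.12 ± 0.54 (adjusted p = 0.0191), whereas its most accessible promoter region chr6:99096093-99096710 had a value of 0.19 ± 0.22 (adjusted p = 0.703).

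At Foxo1 no region passed in the control comparison without a block. Its promoter region chr3:52267936-52268539 had 23.5, 21.1 and 25.4 CPM in control cTregs and 13.0, 16.01 and 21.1 CPM in control eTregs, groups that overlapped by a narrow margin at 21.1 CPM, with a value of -0.46 ± 0.23 (adjusted p = 0.272). The region with the smallest p at this locus, chr3:52458544-52459108, 190.5 kb after the start, had 35.7, 40.0 and 27.6 CPM against 18.9, 26.8 and 23.8 CPM, a value of -0.58 ± 0.21 (adjusted p = 0.109). With the replicate number within genotype as a block this region passed, at -0.57 (adjusted p = 0.0319). The difference in counts between Foxo1 and Foxp1 was not itself tested.

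Id3, the inhibitor of E proteins, had 7 regions and none passed in either direction. Its promoter region chr4:136143582-136143990 had 27.9, 25.6 and 25.4 CPM in control cTregs and 22.8, 26.2 and 25.4 CPM in control eTregs. These overlapped, and the value was -0.08 ± 0.23 (adjusted p = 0.884). The upstream region chr4:136100117-136101128 was at 8.31, 9.10 and 4.46 CPM against 12.7, 11.6 and 10.4 CPM, with every eTreg library above every cTreg library but a value of 0.61 ± 0.34 that did not pass (adjusted p = 0.328).

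**Figure D2:**
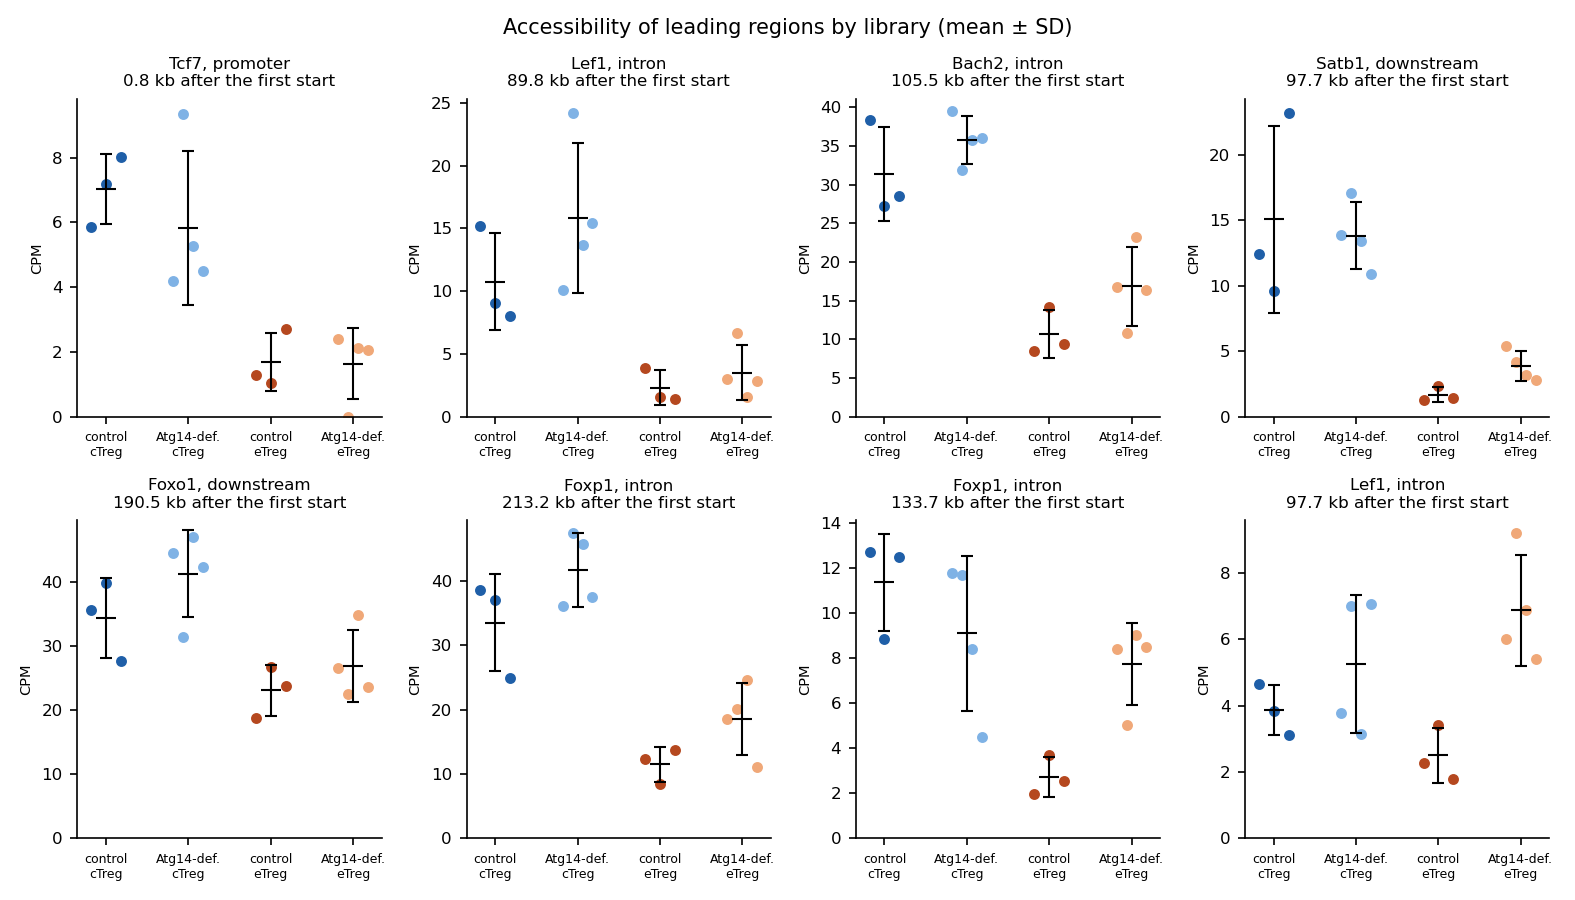
Accessibility in CPM (y axis) of 8 regions of the loci in each library, by group (x axis), with points for libraries and bars for mean ± SD (n = 3 or 4). At the Satb1 region 97.7 kb after its start the control cTreg points lie at 9.57 to 23.2 CPM and the control eTreg points at 1.30 to 2.36 CPM, with the Atg14-deficient eTregs between them at 2.83 to 5.39 CPM.

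Summing all regions of a locus and dividing by their summed length gave a level per kb that can be compared between genes. In control cTregs the order was Tcf7 with 37.3 ± 0.837 CPM per kb (SD, n = 3), Bach2 with 37.2 ± 3.51, Lef1 with 35.0 ± 2.63, Satb1 with 28.95 ± 3.15, Id3 with 24.75 ± 2.28, Foxp1 with 24.1 ± 3.30 and Foxo1 with 24.0 ± 0.522. The libraries of Tcf7, Bach2 and Lef1 overlapped, those of Lef1 and Satb1 did not, and those of each later pair of neighbours did. In control eTregs the order was Bach2 with 30.6 ± 0.774, Tcf7 with 26.9 ± 3.59, Id3 with 26.6 ± 2.60, Lef1 with 25.7 ± 3.02, Foxo1 with 20.96 ± 2.26, Satb1 with 19.0 ± 1.60 and Foxp1 with 17.0 ± 1.52 CPM per kb (n = 3), and every pair of neighbours overlapped. The mean over all regions of the table was 37.3 CPM per kb.

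Of the 7 loci, 6 had lower levels in all control eTreg libraries than in any control cTreg library, by log2 ratios of -0.61 at Satb1, -0.50 at Foxp1, -0.48 at Tcf7, -0.45 at Lef1, -0.28 at Bach2 and -0.20 at Foxo1. Id3 overlapped, with a ratio of 0.11. In Atg14-deficient Tregs (n = 4 a group) the libraries of Satb1 (-0.64), Foxp1 (-0.44) and Bach2 (-0.30) still did not overlap between states, and those of Lef1 (-0.27), Tcf7 (-0.26), Foxo1 (-0.09) and Id3 (0.04) did. Tcf7 was at 28.4 to 37.9 CPM per kb in the Atg14-deficient eTregs and at 24.4 to 31.0 in the control eTregs. For Id3 every Atg14-deficient cTreg library (26.95 to 31.75 CPM per kb) was above every control cTreg library (22.1 to 26.3), a log2 ratio of 0.21. An exact permutation test (two-sided) could not have gone below 0.0571 for 3 and 4 libraries or 0.1 for 3 and 3. The floor is 0.0286 for 4 and 4 if same-numbered libraries are not paired, but the levels sum regions already tested one by one and are given as a description throughout.

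**Figure D3:**
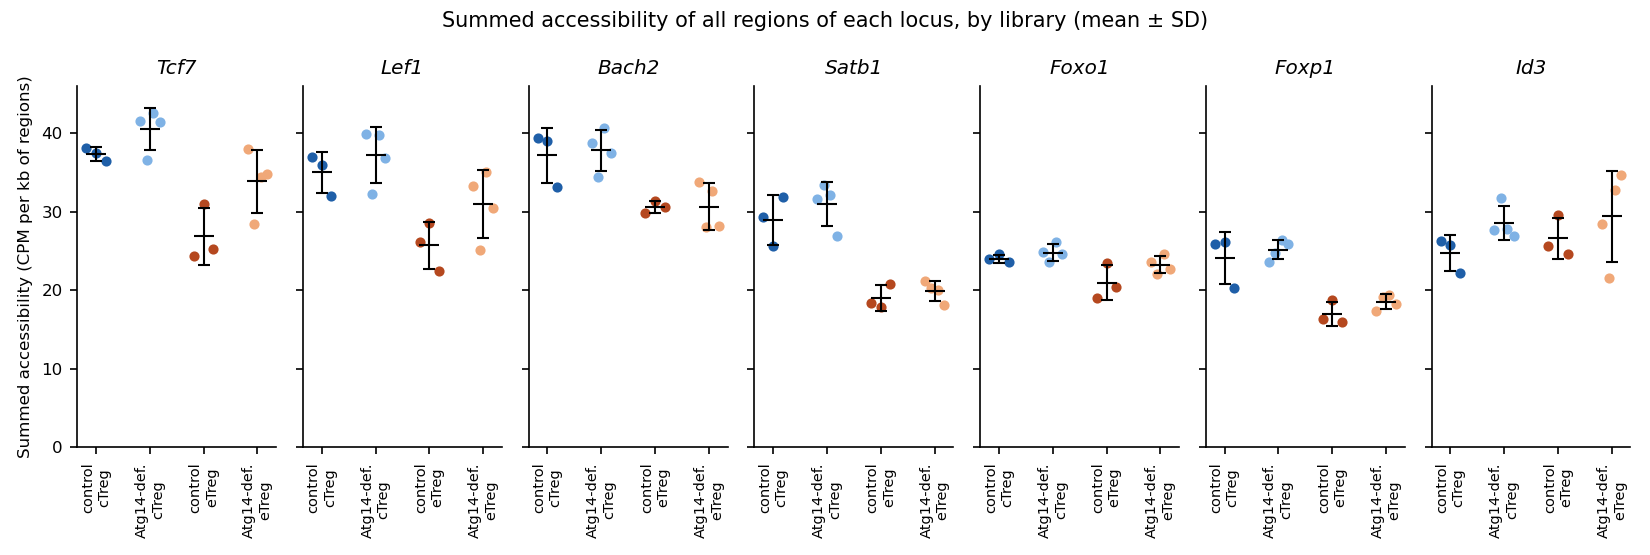
Summed accessibility of each locus in CPM per kb of region (y axis) in the 4 groups, with points for libraries and mean ± SD. Control cTregs lie above control eTregs without overlap at every locus other than Id3, with Satb1 at 28.95 against 19.0 CPM per kb.

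The second comparison asked for the same state difference among Atg14-deficient Tregs, which share no library with the controls. Here 47 of 247 regions fell in eTregs (19.0%), against 5.4% of all tested regions, and 5 rose, against 4.41%. The median log2 fold change was -0.47. Satb1 again had 17 regions that fell, Bach2 had 12, Foxp1 11, Lef1 5, Tcf7 1 and Foxo1 1. Of the regions that fell, 31 were shared with the control comparison, which is 67.4% of the control list and 66.0% of the Atg14-deficient list, and all other members of both lists had the same sign in the other genotype. Over all tested regions the shared 1302 made up 64.6% and 39.3% of these lists, and 1997 of 2016 and 3252 of 3314 called regions had the same sign, so that the sign of the members was like that of called regions in general. By gene, 5 of the 6 Lef1 calls in controls were shared, as were 8 of 10 for Bach2, 11 of 17 for Satb1, 6 of 11 for Foxp1 and 1 of 2 for Tcf7.

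The far upstream Satb1 region, chr17:52178015-52178376, had 12.6, 12.5, 15.2 and 8.35 CPM in Atg14-deficient cTregs and 0.599, 2.51, 1.06 and 1.03 CPM in Atg14-deficient eTregs. The cTreg libraries were all far above the eTreg libraries, as in the controls, with a change of -3.28 ± 0.42 (adjusted p = 3.3e-05). At the Bach2 intron region chr4:32343740-32344178 the values were 39.5, 31.9, 35.8 and 36.0 CPM against 16.8, 10.9, 23.3 and 16.4 CPM, a change of -1.07 ± 0.22 (adjusted p = 0.00238). The Foxo1 region chr3:52458544-52459108 fell here, by -0.61 ± 0.18 (adjusted p = 0.0313), from 44.5, 31.5, 47.1 and 42.4 CPM to 26.7, 22.6, 34.9 and 23.6 CPM. One eTreg library was above the lowest cTreg library.

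Of the 5 regions that rose, which were named after their values were seen, 4 were at Bach2. The count of 5 was 1 without Atg14-deficient eTreg replicate 1, 2 without Atg14-deficient cTreg replicate 3 and 3 without Atg14-deficient cTreg replicate 2. The Bach2 region that rose in controls, chr4:32179630-32180132, did so here too, from 13.4, 10.1, 8.94 and 22.5 CPM to 34.8, 22.6, 28.6 and 29.8 CPM (1.08 ± 0.28, adjusted p = 0.0129). The other Bach2 regions were chr4:32217554-32217932 (0.98 ± 0.29, adjusted p = 0.0309), chr4:32250225-32251405 (0.56 ± 0.15, adjusted p = 0.0211) and chr4:32137985-32138270. The last had no count in any Atg14-deficient cTreg library and 20, 5, 8 and 0 counts in the Atg14-deficient eTreg libraries. Most of these counts were in replicate 1. The pooled eTreg level was 9.74-fold a floor of 3 counts over the cTreg group, which is no bound because counts are not independent fragments. The fifth was the Foxo1 intron region chr3:52302903-52303135 (3.35 ± 0.84, adjusted p = 0.011), where Atg14-deficient cTregs had 0, 0, 1.05 and 0 CPM. Same-numbered cTreg and eTreg libraries of the Atg14-deficient chimeras deviated together, and with that number as a block 9 regions rose in place of 5.

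**Figure D4:**
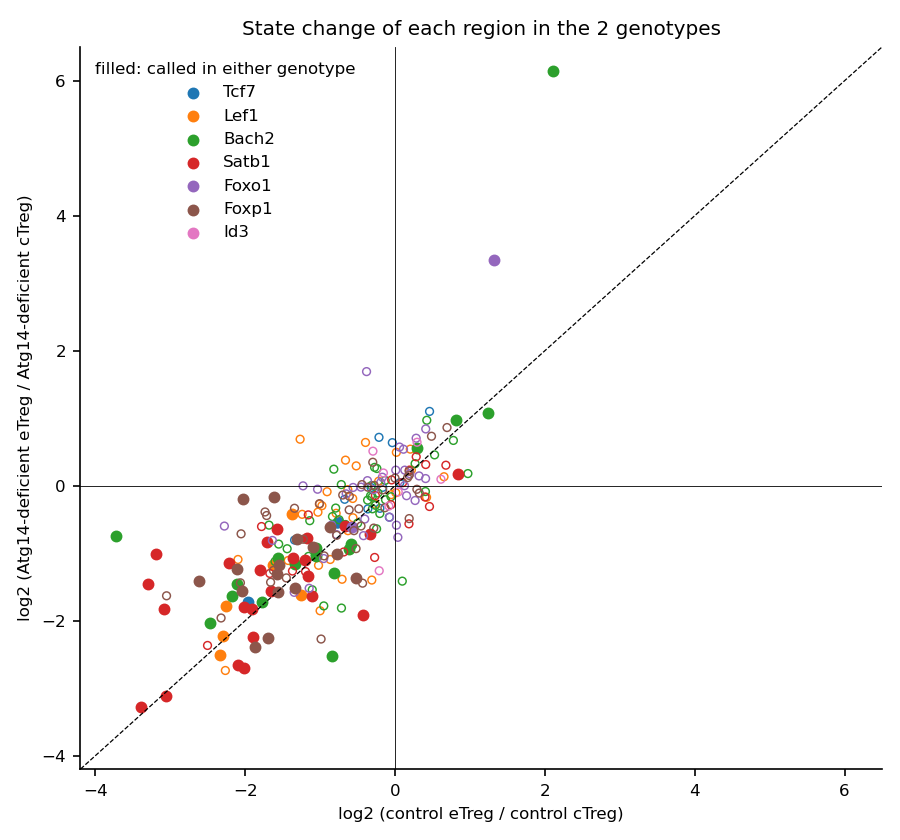
Log2 fold change of eTregs against cTregs in control (x axis) and Atg14-deficient (y axis) Tregs for each tested region, coloured by gene, with filled points for regions called in either genotype and a dashed line where both values are equal. The 31 regions that fell in both lie in the lower left, and the outlying Bach2 point at 6.14 on the y axis has no count in Atg14-deficient cTregs, so that its fitted value is no bound.

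The next comparison asked how Atg14 deficiency changed these loci in eTregs. No region passed the adjusted threshold in edgeR or in DESeq2, and 14 of all tested regions did (0.0228%). At the unadjusted threshold (p below 0.05, absolute log2 change above 0.5), 24 of 247 regions were higher in Atg14-deficient eTregs (9.72%), against 4.59% of all tested regions, and 1 was lower, against 1.77%. Satb1 had 8 of the 24, Lef1 7, Foxp1 5, Bach2 3 and Foxo1 1, and Tcf7 and Id3 had none. The median log2 difference was 0.25, against 0.06 over all regions. The summed Treg marker promoters were also higher in these Atg14-deficient eTregs. The split of 24 to 1 was 20 to 1 with TMM normalization or DESeq2 and 19 to 1 with loess offsets, while over all regions the share of such calls that were higher moved from 72.2% to 60.1%, 64.5% and 55.8%.

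The smallest unadjusted p was at the Foxp1 intron region chr6:99388747-99389316, whose sequence is printed above. The control eTreg libraries had 1.95, 3.67 and 2.52 CPM and the Atg14-deficient eTreg libraries 8.39, 5.02, 9.00 and 8.48 CPM. All 4 were above the 3 controls, with a difference of 1.50 ± 0.40 (unadjusted p = 0.000684, adjusted p = 0.298). In cTregs the same region had 12.7, 8.86 and 12.5 CPM in controls and 11.8, 11.7, 8.41 and 4.50 CPM in Atg14-deficient libraries, which overlapped.

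At Lef1 the intronic region chr3:131207923-131208151, 97.7 kb after the first start, had 2.28, 3.41 and 1.80 CPM in control eTregs and 5.99, 9.20, 6.88 and 5.39 CPM in Atg14-deficient eTregs. The groups were apart, with a difference of 1.45 ± 0.44 (unadjusted p = 0.00267, adjusted p = 0.373). The Lef1 intron region chr3:131157375-131157867 had 22.1, 26.2 and 23.2 CPM against 44.4, 27.6, 35.7 and 39.5 CPM, a difference of 0.63 ± 0.20 (unadjusted p = 0.00297, adjusted p = 0.385). The internal Satb1 promoter chr17:51826424-51826854 had 2.93, 6.30 and 7.21 CPM against 15.3, 12.1, 7.94 and 11.3 CPM, a difference of 1.03 ± 0.32 (unadjusted p = 0.00294, adjusted p = 0.385). In each of these the lowest Atg14-deficient library was above the highest control library. At the Satb1 intron region chr17:51789183-51789486, with 0, 0.525 and 0.721 CPM in control eTregs and 3.60, 0.837, 2.65 and 2.31 CPM in Atg14-deficient eTregs, the difference was 2.28 ± 0.76 (unadjusted p = 0.00525, adjusted p = 0.45). It did not pass in limma-voom with the replicate number within genotype as a block (unadjusted p = 0.068), where the test changed along with the block.

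Comparisons of genotype in eTregs and of state share the eTreg libraries, so their values are set side by side without a test of likeness. The Satb1 region of smallest p in the control state comparison, chr17:51735235-51735986, changed by -3.09 between control states and by -1.83 ± 0.34 between Atg14-deficient states (adjusted p = 0.00119), and differed by 1.17 ± 0.44 between genotypes in eTregs (unadjusted p = 0.0137, adjusted p = 0.517) and by -0.10 ± 0.33 in cTregs. The Foxp1 region chr6:99388747-99389316 changed by -2.03 between control states and had a value of -0.20 ± 0.33 between Atg14-deficient states (adjusted p = 0.748). The Satb1 promoter at the first start, chr17:51832404-51833453, changed by -0.67 and -0.60 in these, and its genotype value in eTregs was -0.04 ± 0.15. The 1 region that was lower in Atg14-deficient eTregs, Satb1 chr17:51714797-51715077, was named after its values were seen. It had 5.21, 2.10 and 4.14 CPM in control eTregs and 1.80, 0, 1.06 and 0.514 CPM in Atg14-deficient eTregs (-2.07 ± 0.86, unadjusted p = 0.0228, adjusted p = 0.561), and it was not called without control eTreg replicate 1.

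The same comparison was made in cTregs. No region passed the adjusted threshold in edgeR or DESeq2, against 10 of all tested regions (0.0163%). At the unadjusted threshold 7 were higher in Atg14-deficient cTregs (2.83%), against 1.99% of all regions, and 3 were lower (1.21%), against 1.35%, and the median log2 difference was 0.09. The higher regions were 4 at Satb1 and 1 each at Bach2, Foxp1 and Id3. The count of 7 was 4 without control cTreg replicate 3 or without Atg14-deficient cTreg replicate 3 and 11 without Atg14-deficient cTreg replicate 4. The count of 3 was 1 without control cTreg replicate 1 and 5 without Atg14-deficient cTreg replicate 2.

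The Satb1 upstream region chr17:51945696-51946001 had 1.71, 0.957 and 0.892 CPM in control cTregs and 5.46, 4.67, 7.62 and 3.85 CPM in Atg14-deficient cTregs, all higher, with a difference of 2.13 ± 0.67 (unadjusted p = 0.0034, adjusted p = 1). The Id3 upstream region chr4:136100117-136101128 had 8.31, 9.10 and 4.46 CPM against 11.8, 14.8, 11.6 and 18.6 CPM, again without overlap, a difference of 0.91 ± 0.33 (unadjusted p = 0.00891, adjusted p = 1) that did not pass without control cTreg replicate 3. The Satb1 upstream region chr17:52168333-52169058 differed by 0.96 ± 0.36 (unadjusted p = 0.0122) and missed the threshold without control cTreg replicate 1, control cTreg replicate 2 or Atg14-deficient cTreg replicate 2. Of the 3 lower regions, Satb1 chr17:52103521-52103844 differed by -1.56 ± 0.55 (unadjusted p = 0.00818) and did not pass without control cTreg replicate 3 or, in an alternative chosen after seeing the data, with each library's share of counts in promoters as a covariate (-1.12, unadjusted p = 0.0689). Foxo1 chr3:52302903-52303135 differed by -2.36 ± 0.94 (unadjusted p = 0.0172). Bach2 chr4:32137985-32138270 had 8, 2 and 0 counts in control cTregs and none in Atg14-deficient cTregs. The pooled control level was 3.76-fold a floor of 3 counts over the Atg14-deficient group, which is no bound because counts are not independent fragments. The region did not pass without control cTreg replicate 1 or, in limma-voom, with the replicate number within genotype as a block (unadjusted p = 0.197).

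**Figure D5:**
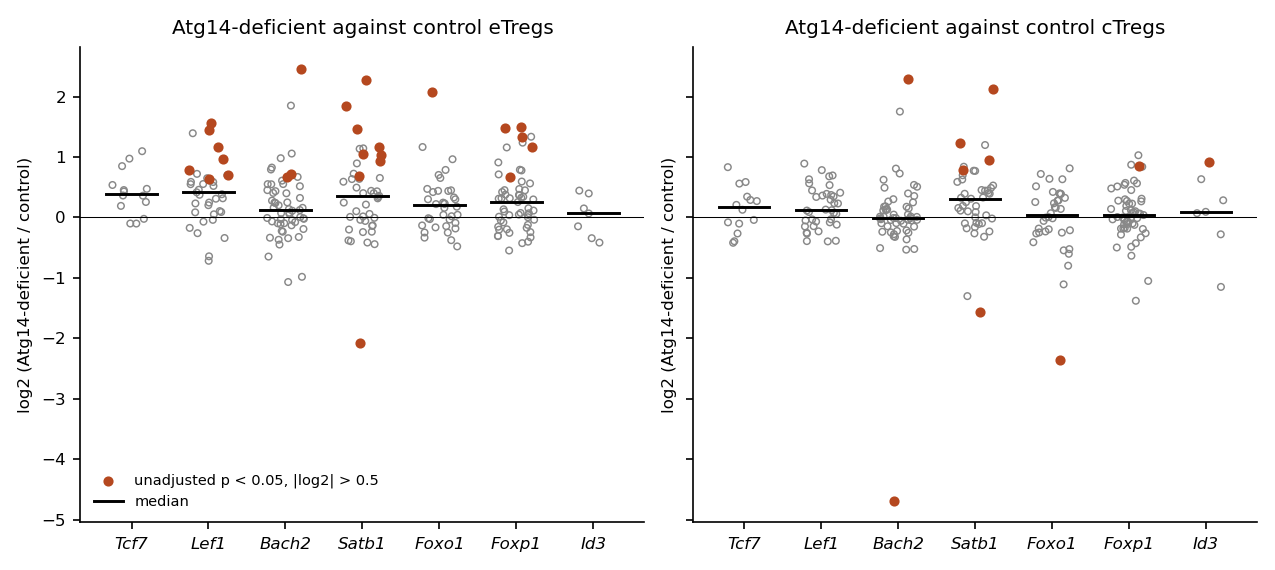
Log2 difference of Atg14-deficient against control libraries in eTregs and in cTregs (y axis) for each tested region, by locus (x axis), with regions past the unadjusted threshold filled and a bar at each median. In eTregs 24 regions are above and 1 below 0 past that threshold, in cTregs 7 and 3, and none of them passed after adjustment. The Bach2 point at -4.69 in cTregs has no count in the Atg14-deficient group and is no bound.

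The difference between these genotype effects, that is the interaction of genotype with state, was tested in the same model. No member passed after adjustment in edgeR or DESeq2. At the unadjusted threshold 11 regions had a larger genotype value in eTregs than in cTregs (4.45%), against 1.9% of all tested regions, and 1 a smaller value (0.405%), against 1.14%. Of the 11, 4 were at Lef1, 3 at Satb1, 2 at Foxp1 and 1 each at Bach2 and Foxo1. The 11 to 1 split was 8 to 3 with TMM normalization, 9 to 2 with loess offsets and 9 to 3 with DESeq2, which takes the share with larger values from 91.7% to 72.7%, 81.8% and 75.0%. Over all tested regions that share moved from 62.5% to 54.9%, 54.7% and 54.7%. The count of 12 was 7 without Atg14-deficient cTreg replicate 4 or without control eTreg replicate 1.

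Motif letters in the central 200 bp were counted as a description, on both strands. CTTTGAT, the letters bound by TCF-1 and LEF-1, was in 22 of 275 member regions (8.0%) and in 3.83% of all 67207 regions on chromosomes. It was in 4 of the 46 regions that fell in control eTregs (8.7%) and in 17 of the 201 other tested members (8.46%). Over all loci it was in 10.8% of regions that fell in control eTregs. The AP-1 letters were in 18.5% of member regions against 11.6% of all regions, in 13.0% of the 46 and in 20.4% of the 201. Forkhead letters were in 4.36% of members and 3.03% of all regions, RUNX letters in 12.4% and 10.2%, ETS letters in 44 member regions and 14.3% of all regions, E protein letters in 14.9% and 12.9%, and KLF letters in 4.0% and 5.88%.

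Genes that work with these factors were counted by the same rule. Of homing and quiescence genes (Klf2, Ccr7, S1pr1, Il7r, Il6ra, Foxo3, Klf3, Bcl2, Ets1), several of them Foxo1 targets, 25 of 207 tested regions fell in control eTregs (12.1%, against 3.29% of all tested regions) and none rose in edgeR at the adjusted threshold, where 1 was higher at the unadjusted threshold. Ets1 had 5 of the 25, Ccr7, Klf2 and Klf3 4 each, Il7r and S1pr1 3 each and Bcl2 2. Their median was -0.46. In Atg14-deficient Tregs 28 fell (13.5%, against 5.4% of all tested regions) and 4 rose (1.93%, against 4.41%). At the unadjusted threshold for genotype in eTregs, 26 were higher (12.6%, against 4.59% of all tested regions) and none lower, with 10 at Ets1, and in cTregs 6 were higher (2.9%, against 1.99%) and 2 lower (0.966%, against 1.35%).

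Of the paralogues and partners of the members (Tcf3, Tcf12, Id2, Bach1, Foxo4, Foxp4, Tle4, Mafk, Tcf7l2, Tcf7l1), 7 of 142 regions fell in control eTregs (4.93%) and 3 rose (2.11%), with a median of -0.03, which is near the 3.29% and 2.01% of all tested regions. In Atg14-deficient Tregs 11 fell (7.75%, against 5.4% of all tested regions) and 7 rose (4.93%, against 4.41%). The unadjusted genotype counts were 3 higher (2.11%, against 4.59%) and 3 lower (2.11%, against 1.77%) in eTregs, all 3 lower ones at Bach1, and 0 higher (against 1.99%) and 1 lower (0.704%, against 1.35%) in cTregs. Of effector Treg factors (Prdm1, Batf, Irf4, Maf, Gata3, Nfil3, Zeb2, Rora, Tbx21, Ikzf3, Bhlhe40), 12 of 277 regions fell in control eTregs (4.33%, against 3.29% of all tested regions) and 9 rose (3.25%, against 2.01%), with a median of 0.07. Tbx21, Nfil3 and Prdm1 had 2 regions each that rose, and Irf4 and Bhlhe40 4 each that fell. In Atg14-deficient Tregs 20 of these fell (7.22%, against 5.4% of all tested regions) and 22 rose (7.94%, against 4.41%), with 6 of the latter at Maf. At the unadjusted threshold for genotype 15 were higher (5.42%, against 4.59% of all tested regions) and 3 lower (1.08%, against 1.77%) in eTregs. In cTregs 12 were higher (4.33%, against 1.99%) and 5 lower (1.81%, against 1.35%).

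The summed accessibility of the loci varied together over the 14 libraries, which share the state difference and their depth, so the correlations are descriptions. Pearson's r of log2 CPM was 0.934 for Tcf7 with Lef1, 0.909 for Tcf7 with Foxo1 and 0.844 for Bach2 with Foxp1, and for Id3 it was between -0.171 and 0.326 with the other members. Among genes with at least 5 tested regions, those most like Tcf7 were Ptprc (0.963), Gm40011 (0.953) and Prkch (0.951), and those most like Lef1 were Gm40011 (0.969), Kcnn4 (0.953) and Smad7 (0.947). Nfkb1 (0.955), Gsap (0.95) and Dusp6 (0.947) were most like Bach2, and Glcci1 (0.979), Rbms1 (0.971) and Gm50595 (0.971) most like Satb1. For Foxo1 they were Prkch (0.93), Gm40011 (0.91) and Tcf7 (0.904, over its 13 regions with Tcf7 as the nearest start, where the 0.909 above used all 14), and for Foxp1 B3gnt2 (0.922), Ptpn14 (0.92) and Il10rb (0.919). Id3 had lower values, with Ppcdc (0.837), Lck (0.789) and Irs3 (0.774).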

How the data were processed

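Bulk ATAC-seq was measured in 14 libraries of splenic cTregs and eTregs in 4 groups, which were assigned from the sample labels. The authors trimmed, aligned and deduplicated paired reads, shifted them for the transposase, called peaks in each library with MACS2, merged the peaks that 50% or more of a genotype's replicates had in common and counted nucleosome-free reads with bedtools. The submitters' processing notes name cutadapt 1.9, Picard 1.65 and MACS2 2.1.0.20150603. The deposited values are raw counts per merged region, and 82.0% of them are even numbers, so that both reads of a pair were mostly counted and counts are not independent fragments. The methods and the processing notes name different mouse builds. All 67207 regions on chromosomes lie within GRCm38 ends, and 10147 of 21774 protein-coding starts had a region within 200 bp (758 once the regions were moved by 20000 bp), so GRCm38 was used with the RefSeq annotation.

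Regions kept by edgeR's filterByExpr (61366) were fitted with the edgeR 4.0.16 quasi-likelihood test in R 4.3.3 (glmQLFit, robust) with library totals as sizes and a mean per group for all 14 libraries. The biological coefficient of variation was 25.6%, and total counts of 2242983 to 5548189 limited precision at weak regions. State calls used a Benjamini-Hochberg adjusted p below 0.05 over all tested regions and genotype calls an unadjusted p below 0.05, both with a log2 fold change beyond 0.5. Named regions were, for each gene, the most accessible promoter region (within 1 kb of a start) and the 3 smallest p in the control state comparison, and, over all genes, the 5 smallest p in each genotype comparison. Members, lists, motifs and tests were chosen with earlier results of these data known.

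Alternatives were TMM, loess offsets, DESeq2 1.42.0, no filter, a minimum of 10 counts per library, a log2 cutoff of 1, a fit of the compared groups only, gene bodies with 10 kb before the start, replicate number as a block (across genotypes or within genotype), each library left out and, added after seeing the data, a covariate for each library's share of counts in promoters. For the genotype comparisons, the block within genotype was fitted in limma 3.58.1 (voom) with a correlation of 0.193 between same-numbered libraries, a different test. Same-numbered cTreg and eTreg libraries deviated together in the Atg14-deficient chimeras (r of deviations from group means 0.119, 0.243, 0.14 and 0.225) and in the controls (0.054, 0.209 and 0.19). The main fits took all libraries as independent, and the number entered only in the alternatives with a block. The labels do not say whether same-numbered libraries came from the same chimera or whether animals were pooled. The p-values thus measure the spread between these libraries. Some list and marker genes are not reported here, and list counts leave them out. Scripts were tested on simulated data. Python 3.11.15 with pandas 2.3.3, SciPy 1.17.1 and matplotlib 3.10.9 was used for annotation, summaries and plots.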

Additional observations from a re-analysis of the deposited data

Results flagged for a closer look

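Within groups of 4 libraries, 90 checks of the gap between an extreme library and its nearest neighbour, relative to the group's range, found 3 values that stood apart. Chance alone gives about 1 in 20 checks, so 3 of 90 are no more than chance gives. At the Id3 downstream region chr4:136147733-136148156, Atg14-deficient cTreg replicate 4 had 10.9 CPM, with the gap at 0.864 of the range. At the Tcf7 internal promoter chr11:52282455-52282740, Atg14-deficient eTreg replicate 2 had 0.0 CPM (0.857). At the Foxp1 intron region chr6:99388747-99389316, Atg14-deficient eTreg replicate 2 had 5.02 CPM (0.847).

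The genotype effect differed between eTregs and cTregs, at an unadjusted p and with no value passing after adjustment, at 5 named regions. The log2 difference of the effects was 1.83 at the Foxp1 intron region chr6:99388747-99389316 (edgeR, unadjusted p = 0.00158), a value that passed in all 14 fits that left out a library. It was 1.45 at the Foxp1 intron region chr6:99031207-99031777 (edgeR, unadjusted p = 0.0114), which missed the threshold without Atg14-deficient eTreg replicate 1, and 1.96 at the Lef1 upstream region chr3:130932277-130932542 (edgeR, unadjusted p = 0.0125), which missed it without control cTreg replicate 1. It was 2.07 at the Foxo1 intron region chr3:52300611-52300854 (edgeR, unadjusted p = 0.0252), which missed it without Atg14-deficient cTreg replicate 3, control eTreg replicate 1 or control eTreg replicate 3. Without control eTreg replicate 2, which had 6.82 CPM beside 1.30 and 0.541 CPM in the other control eTreg libraries, that value was 3.76. It was 2.98 at the Bach2 intron region chr4:32307353-32307558 (edgeR, unadjusted p = 0.0254), which missed it without control cTreg replicate 1, control eTreg replicate 1, control eTreg replicate 3, Atg14-deficient eTreg replicate 2 or Atg14-deficient eTreg replicate 3, and with the replicate number within genotype as a block (unadjusted p = 0.0538).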

How the results depend on the processing

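The cause of the following changes was not tested, beyond the fewer regions or samples that an alternative leaves. The shares over all tested regions under these alternatives are not given, so a change at the members cannot be told from one over all regions. With at least 10 counts in every library, a filter that also removes regions because their counts fell in a group, the regions that fell in eTregs numbered 22 in controls and 20 in Atg14-deficient Tregs, 3 rose in the latter, the unadjusted genotype counts were 9 higher and 0 lower in eTregs and 1 higher and 0 lower in cTregs, and the interaction count was 5. With a log2 cutoff of 1, 1 region rose in control and 3 in Atg14-deficient eTregs, 15 and 3 were higher by genotype in eTregs and cTregs, and the interaction count was 7. With gene bodies and 10 kb before the start only, 0 and 2 rose by state, 15 were higher and 0 lower by genotype in eTregs, 2 higher and 1 lower in cTregs, and the interaction count was 7. With only the compared groups fitted, 1 region rose between control states and 0 were lower by genotype in eTregs. With each library's share of counts in promoters as a covariate, chosen after seeing the data, 7 and 11 regions rose by state, and 3 and 6 were lower by genotype in eTregs and cTregs.

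With the replicate number within genotype as a replicate block, 5 regions rose in control and 9 in Atg14-deficient eTregs and 2 were lower by genotype in eTregs (limma-voom). The count that fell was 66 in controls and 68 in Atg14-deficient Tregs. With the shared number across genotypes as a replicate block, 0 were lower by genotype in eTregs, and no other count moved by over 1.5 times. Control and Atg14-deficient libraries share only a number: their correlations were -0.217 to 0.091. Control eTreg and cTreg libraries of the same number correlated at 0.054 to 0.209. Over both genotypes, 7 of 7 cTreg libraries were most like the eTreg library of their own number.

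Without single libraries, 17 to 45 regions fell in control and 32 to 48 in Atg14-deficient eTregs. In controls 0 to 3 rose, with 0 without control cTreg replicate 1 or 3 and 1 without control eTreg replicate 1, 2 or 3. In Atg14-deficient Tregs 1 to 7 rose, with 1 without Atg14-deficient eTreg replicate 1, 2 without Atg14-deficient cTreg replicate 3 and 3 without Atg14-deficient cTreg replicate 2. In eTregs 19 to 25 were higher and 0 to 2 lower by genotype, with 0 lower without control eTreg replicate 1 and 2 without Atg14-deficient eTreg replicate 4. In cTregs 4 to 11 were higher and 1 to 5 lower. The interaction count was 7 to 16. No adjusted genotype or interaction call appeared under any alternative. For single named regions, 605 of 645 alternative values kept their direction and side of the threshold, 36 no longer passed, 4 newly passed and 0 reversed. The 605 include regions that did not pass in the main fit, such as the Id3 promoter, and stayed so. The share kept among regions that did pass is therefore lower. Regions with few counts per library have wide errors at this depth.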
